A study of Cavia porcellus with 10 samples.

Results

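The mitosis and kinetochore genes are a list of 44 genes that encode the drivers of mitotic entry, the kinetochore, the spindle checkpoint, the spindle motors and the machinery of cell division. Their transcripts were followed in the cervix of the guinea pig (Cavia porcellus, Hartley strain) before and during pregnancy. The members were taken by gene symbol, and 35 of the 44 matched a row of the deposited table by name, out of 25028 genes in all. The other 9, CCNB1, TTK, AURKA, CENPE, TPX2, BIRC5, CDCA3, CDC25C and NUSAP1, matched no row by name and were not analysed here. All 35 were kept by the filter on low values, which asked for a mean of at least 3 TPM (length-corrected transcript abundance, scaled to the same total in every animal) in at least 1 stage and left 12645 genes to be tested. Of the 35, 15 had a mean above 3 TPM in every stage, and 20 passed through their means outside mid-pregnancy.

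RNA was sequenced from 10 animals, each a separate female. The non-pregnant group in estrus (NP) had 3 animals, killed the day after the membrane that closes the vulva had opened. The mid-pregnant group (MT) had 3 animals at 43.6 ± 0.5 days of gestation, and the late pregnant group (LT) had 4 animals at 65.2 ± 1.2 days (SD) that were not in labor. The gestational ages are estimates from fetal size, since the dates of mating were uncertain. Sampling aimed at the part of the cervix next to the vagina, away from the uterine wall, and the RNA is that of the whole tissue, in which smooth muscle markers were abundant in every animal. Between 18730665 and 27881572 reads per animal were assigned to genes. All 6 lists of cell type markers that were examined (leukocyte, squamous and glandular epithelium, smooth muscle, fibroblast and endothelium) had transcripts in every animal.

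The entry into mitosis needs CDK1, the kinase that drives the cell into division, which acts bound to B-type cyclins. The kinetochore, a protein assembly on the centromere, then ties each chromosome to the spindle, and the spindle checkpoint holds the cell back until every chromosome is attached. The anaphase-promoting complex ends the arrest by marking cyclins and securin for destruction, separase opens the sister chromatids, and the cell is pinched apart in cytokinesis. Most of these genes are transcribed late in the cell cycle, in part through FOXM1 and the MuvB complex, and little in resting cells. In bulk tissue, fewer dividing cells and less RNA in each of them cannot be told apart.

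The members followed a U-shaped course, with a fall from estrus to mid-pregnancy and a rise to late pregnancy. Their median level was 10.2, 12.3 and 7.64 TPM in the NP animals, 3.92, 1.16 and 2.51 TPM in the MT animals, and 18.6, 14.4, 16.4 and 11.3 TPM in the LT animals. The MT animals lay below all others. Every one of the 35 members was above 3 TPM, the threshold used by the study to call a gene expressed, in each NP and each LT animal. In the MT animals, 25, 6 and 14 members were above it. The filter asked for a stage mean of at least 3 TPM, which 20 members reached only outside MT, so these counts are in part fixed by it. No share over all genes was counted for them. For 20 members the stage mean was above 3 TPM in NP and LT and below 3 TPM in MT, a course taken by 1.32% of all genes tested.

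From NP to MT, 32 of the 35 members fell and none rose with an adjusted P under 0.05 (limma), where 12.2% of all tested genes fell and 6.27% rose. The median log2 fold change of the members was -1.67 beside -0.14 over all genes. ESPL1, MAD2L1 and TUBB4B did not pass. From MT to LT, 33 of the 35 rose and none fell, where 6.73% of all tested genes rose and 22.7% fell. Here the members' median was 2.12 beside -0.16 over all genes, and ESPL1 and MAD2L1 did not pass. On the read counts, edgeR's quasi-likelihood test called 32 members lower from NP to MT, beside 7.98% of all genes, and all 35 higher from MT to LT, beside 13.4% of all genes. The balance over all genes moved with the scaling, turning from NP to MT and becoming more even from MT to LT. After median-ratio scaling 1313 genes were higher and 979 lower from NP to MT, in place of 793 and 1549, and 1776 higher and 1939 lower from MT to LT, in place of 851 and 2872, with 32 members lower and 35 higher. Both comparisons share the MT animals, so that the fall and the rise are not independent of each other.

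Every MT animal lay below every NP and every LT animal for 32 of the 35 members, as it did for 4.03% of all genes tested. The MT mean was the lowest stage mean for 34 of them, all but TUBB4B, beside 23.1% of all genes. Between MT and LT alone the animals did not overlap, with LT higher, for 34 members, beside 10.8% of all genes, and between NP and MT, with MT lower, for 33 members, beside 23.5%. An exact two-sided permutation test on square-root TPM gave the smallest P that 3 animals against 4 allow, 0.0286, for 32 members from MT to LT, beside 36.2% of all genes tested. With 3 animals against 3 this test cannot go below 0.1, which 33 members reached from NP to MT, beside 34.9% of all genes. When the 3 stages were tested together by the exact permutation of the F statistic, 33 members had an unadjusted P under 0.05, beside 58.4% of all genes, and CDK1 had 0.000476, the smallest value possible. ESPL1, at 0.0705, and MAD2L1, at 0.0814, did not pass this exact test.

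**Figure D1:**
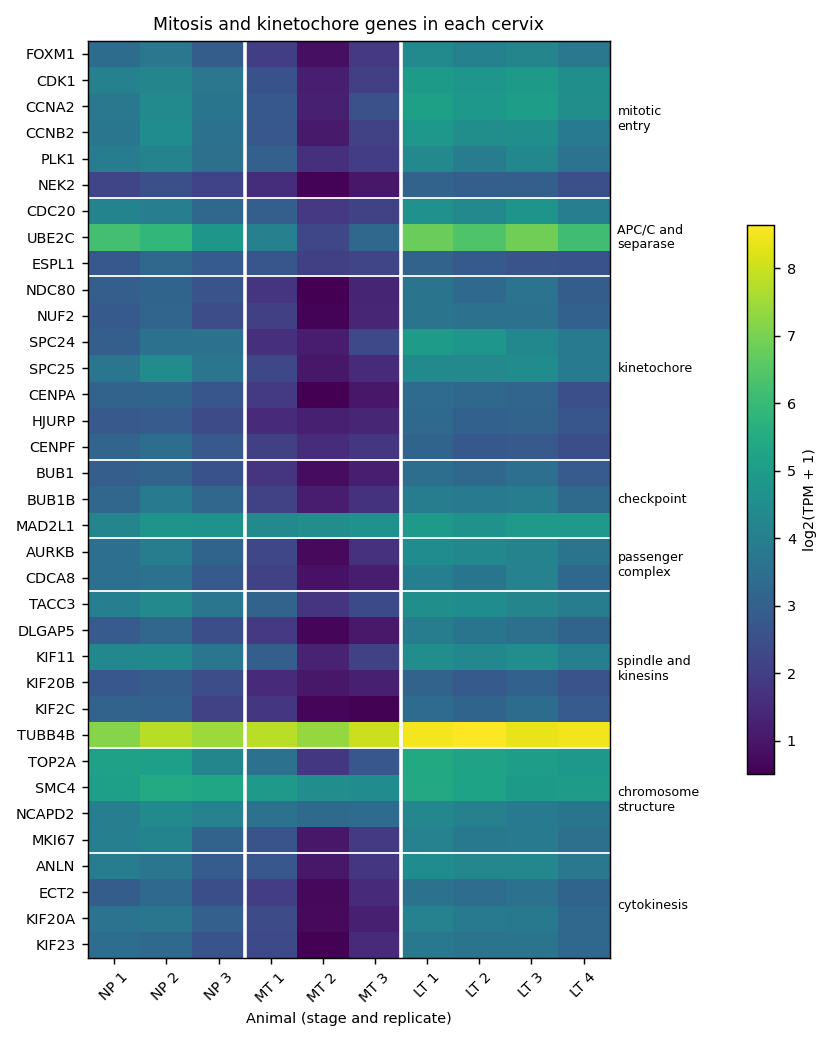
Levels of the 35 members (rows, grouped by role) in the 10 animals (columns, by stage and replicate), as log2(TPM + 1) on the colour scale. The MT columns are darkest in most rows, and the rows of MAD2L1, TUBB4B, SMC4, NCAPD2 and ESPL1 change least.

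Of the genes of mitotic entry, 6 of 9 matched, and all 6 fell to MT and rose to LT. CDK1 was at 16.0, 17.7 and 12.3 TPM in the NP animals, at 4.94, 1.29 and 3.14 TPM in the MT animals and at 30.0, 26.8, 29.8 and 22.6 TPM in the LT animals. The 3 stages did not overlap, and the order MT, NP, LT held for every animal. The log2 fold change of CDK1 was -2.08 (SE 0.30, adjusted P = 0.00195) from NP to MT and 2.88 (SE 0.28, adjusted P = 0.00162) from MT to LT, and its mean was 8.75 times higher in LT than in MT. CCNA2, the cyclin that acts in S phase and at the entry into mitosis, was at 12.5, 19.7 and 11.7 TPM in NP, at 5.68, 1.36 and 4.79 TPM in MT and at 33.9, 28, 32.6 and 22.1 TPM in LT. Its stages also stood apart in the same order. The log2 fold changes of CCNA2 were -1.76 (adjusted P = 0.0102) and 2.73 (adjusted P = 0.00182).

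CCNB2, a B-type cyclin that binds CDK1, was at 12, 21.4 and 10.8 TPM in NP, at 5.61, 1.16 and 3.23 TPM in MT and at 28, 22.0, 22.5 and 13.3 TPM in LT. Its NP and LT animals overlapped, and its MT animals lay below both, with log2 fold changes of -1.94 (adjusted P = 0.0115) and 2.47 (adjusted P = 0.00315). FOXM1, a transcription factor of the late cell cycle, was at 9.39, 12.3 and 6.44 TPM in NP, at 3.06, 0.791 and 2.64 TPM in MT and at 20.4, 16.2, 17.7 and 12.7 TPM in LT. The highest NP animal came close to the lowest LT animal without passing it. FOXM1 changed by -1.76 (adjusted P = 0.0062) and 2.55 (adjusted P = 0.00182) on the log2 scale. PLK1, a kinase needed for spindle assembly, and NEK2, a kinase that separates the centrosomes, had smaller rises from MT to LT, at log2 fold changes of 1.85 and 1.81. The fall of NEK2 from NP to MT was lost when only these stages were fitted (adjusted P = 0.0652).

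**Figure D2:**
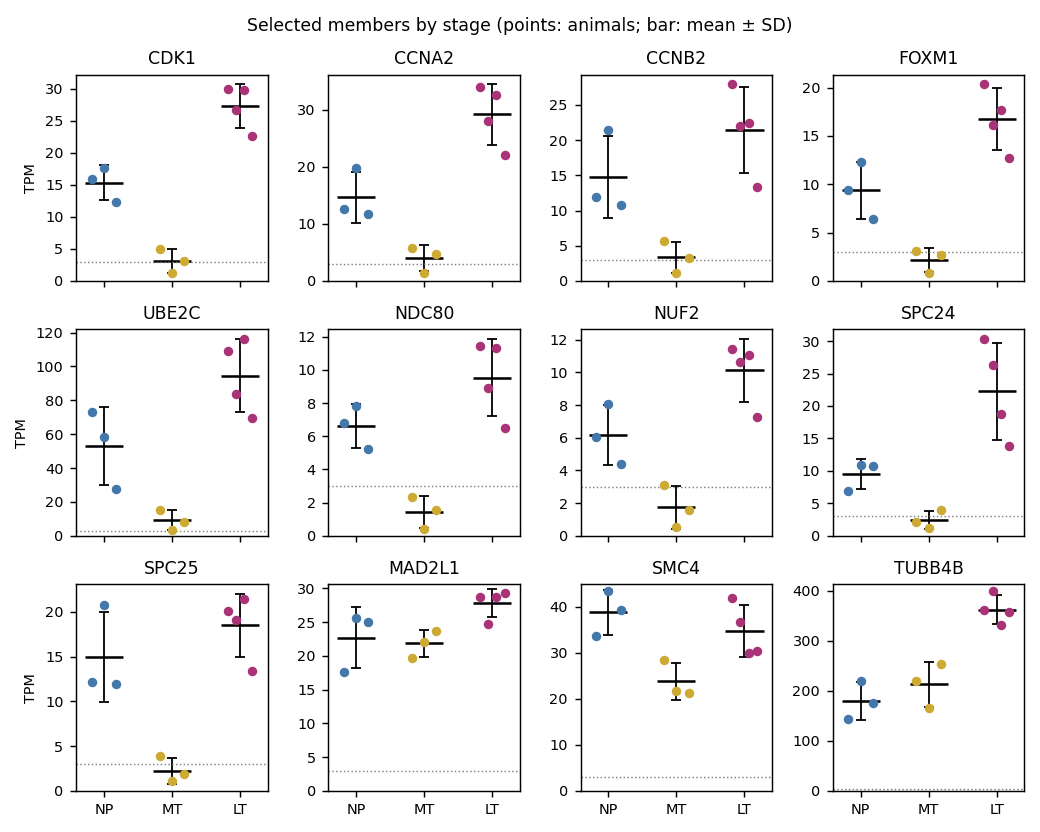
TPM of 12 members by stage, each point 1 animal, with the stage mean as a bar and the SD as whiskers (n = 3, 3 and 4); each panel has its own axis from 0, and the dotted line marks 3 TPM. In 9 panels the MT animals sit well below the others, while MAD2L1, SMC4 and TUBB4B stay far above 3 TPM in every animal.

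The widest swing of all members was that of UBE2C, the ubiquitin-conjugating enzyme of the anaphase-promoting complex. It was at 72.9, 58.5 and 27.5 TPM in NP, at 15.5, 3.71 and 8.45 TPM in MT and at 109, 83.8, 116 and 69.8 TPM in LT. The MT animals were lowest, and the NP and LT animals overlapped slightly. UBE2C fell by a log2 fold change of -2.47 (SE 0.46, adjusted P = 0.0064) and rose by 3.38 (SE 0.43, adjusted P = 0.00182), which made its mean 10.3 times higher in LT than in MT. With edgeR the fall of SPC25 from NP to MT, -2.60, was larger than that of UBE2C, -2.44. CDC20, the co-activator that brings substrates to the same ligase, moved in the same directions, by -1.51 (adjusted P = 0.0126) and 2.12 (adjusted P = 0.00261). Its fall was lost without MT replicate 3 (adjusted P = 0.0533). ESPL1, separase, was at 5.80, 8.62 and 6.36 TPM in NP, at 5.45, 3.15 and 3.60 TPM in MT and at 7.53, 6.11, 5.24 and 4.84 TPM in LT. Its MT and LT animals overlapped, and it had the second smallest change of the list from MT to LT, at 0.46 (SE 0.21, adjusted P = 0.114).

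The kinetochore and centromere genes moved together, since all 7 that matched of 8 fell to MT and rose to LT. The NDC80 complex is the rod that binds microtubules at the outer kinetochore, and its 4 subunits act in equal numbers. NDC80 was at 6.80, 7.84 and 5.20 TPM in NP, at 2.31, 0.439 and 1.57 TPM in MT and at 11.4, 8.88, 11.3 and 6.51 TPM in LT. NUF2 was at 6.06, 8.06 and 4.4 TPM in NP, at 3.12, 0.522 and 1.6 TPM in MT and at 11.4, 10.7, 11.1 and 7.27 TPM in LT. In both of these subunits, which form the end that touches the microtubule, the MT animals were lowest and the NP and LT animals overlapped.

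SPC25 was at 12.2, 20.8 and 12 TPM in NP, at 3.87, 1.07 and 1.84 TPM in MT and at 20.1, 19.1, 21.4 and 13.4 TPM in LT. SPC24 was at 6.91, 10.9 and 10.8 TPM in NP, at 2.13, 1.20 and 3.98 TPM in MT and at 30.3, 26.4, 18.7 and 13.8 TPM in LT. These are the subunits that anchor the rod in the kinetochore, and only in SPC24 were NP and LT also apart. From MT to LT the log2 fold changes were 2.16 for NDC80, 2.11 for NUF2, 2.65 for SPC25 and 2.78 for SPC24, each past the threshold, with adjusted P from 0.00174 to 0.00294. The fall of NUF2 from NP to MT was lost in 3 of the alternatives (adjusted P up to 0.0697). The fold of SPC24 rests on 7, 4 and 18 reads in the MT animals.

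The share of each subunit in the complex was also followed. SPC24 made up 25.9% ± 6.38 of the summed TPM of the 4 subunits in NP, 33.4% ± 13.3 in MT and 36.4% ± 5.53 in LT (SD, n = 3, 3 and 4), while SPC25 made up 39.6% ± 3.57, 29.1% ± 7.54 and 30.9% ± 3.11. The shares of NDC80, at 18%, 17.1% and 15.8%, and of NUF2, at 16.5%, 20.4% and 16.9%, moved less. These shares were not tested. Those of SPC24, the shortest member, ranged from 21.6% to 33.3% in NP, from 18.6% to 44.3% in MT and from 29.9% to 41.4% in LT.

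Among the other centromere genes, CENPA, the histone variant that marks the centromere, rose from a mean of 1.4 TPM in MT to 7.59 TPM in LT (log2 fold change 1.92, adjusted P = 0.00384), with 19, 3 and 10 reads in the MT animals. HJURP, the chaperone that loads CENPA, rose by 1.66 (adjusted P = 0.00162) and varied least among the kinetochore genes in MT, at 1.58 ± 0.263 TPM (SD, n = 3). CENPF, a large protein of the outer kinetochore, had the smallest rise of this group, 0.97 (SE 0.22, adjusted P = 0.0102), and its mean in LT, 5.99 ± 1.39 TPM (SD, n = 4), was below that in NP, 7.91 ± 2.02 TPM (SD, n = 3), by less than the test could tell apart (adjusted P = 0.202).

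The spindle checkpoint genes were divided. BUB1 and BUB1B, which signal from unattached kinetochores, fell by -1.63 and -1.74 on the log2 scale from NP to MT (adjusted P = 0.00412 and 0.00354) and rose by 2.01 and 2.10 to LT (both adjusted P = 0.00182). MAD2L1, the checkpoint protein that binds CDC20, was at 17.6, 25.6 and 24.9 TPM in NP, at 19.7, 22.1 and 23.7 TPM in MT and at 28.8, 24.8, 28.7 and 29.3 TPM in LT. The MT animals lay inside the range of the NP animals, and all LT animals lay above the MT animals by a small margin. Its log2 fold changes were -0.04 (SE 0.15, adjusted P = 0.869) and 0.34 (SE 0.14, adjusted P = 0.0844), the smallest of the list in both comparisons. From MT to LT edgeR called MAD2L1 higher (log2 fold change 0.52, adjusted P = 0.0142), and from NP to MT its sign turned to positive with edgeR, at 0.08, so that no direction can be given for that step.

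AURKB, the kinase of the chromosomal passenger complex that corrects faulty attachments, and CDCA8, borealin, a subunit that places the complex on the centromere, were the 2 members of that complex with a row. AURKB fell from 10.8 ± 3.35 to 2.20 ± 1.56 TPM and rose to 17.1 ± 4.11 TPM, and CDCA8 went from 9.07 ± 2.58 to 1.81 ± 1.29 and to 13 ± 3.62 TPM (SD, n = 3, 3 and 4). Their means were 7.78 and 7.21 times higher in LT than in MT, with adjusted P = 0.00196 and 0.00206.

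Of the spindle genes, 5 of the 6 with a row fell to MT, and all 6 rose to LT. DLGAP5, which stabilises microtubules at the kinetochore, rose by 2.35 on the log2 scale from MT to LT, KIF11, the motor that pushes the spindle poles apart, by 2.21, KIF2C, a kinesin that takes microtubules apart, by 2.19, TACC3, which ties spindle microtubules together, by 1.90, and KIF20B, a kinesin of cell division, by 1.63. Their adjusted P-values ranged from 0.00182 to 0.00339. The fall of KIF2C from NP to MT was lost when only these stages were fitted (adjusted P = 0.0565). TUBB4B, a tubulin subunit that many cells use outside division, was the exception. It was at 144, 219 and 175 TPM in NP, at 221, 165 and 253 TPM in MT and at 362, 400.2, 332 and 358 TPM in LT, so that NP and MT overlapped and every LT animal was higher. TUBB4B changed by 0.25 (SE 0.18, adjusted P = 0.354) and 0.78 (SE 0.17, adjusted P = 0.00893). The call from MT to LT was lost with the replicate number as a block (adjusted P = 0.0505). Reads of TUBB4B may be shared in part with other tubulin genes of similar sequence.

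Among the chromosome structure genes, TOP2A and MKI67 changed more than the condensin subunits. TOP2A, the topoisomerase that untangles sister chromatids, fell from a mean of 28.9 to 6.43 TPM and rose to 34.6 TPM, and MKI67, the coat protein of mitotic chromosomes known as Ki-67, went from 13.4 to 2.97 and back to 13.5 TPM. Both passed in both steps, with log2 fold changes of -2.12 and 2.41 for TOP2A and -1.92 and 1.99 for MKI67. SMC4, a condensin subunit, was at 33.7, 43.4 and 39.2 TPM in NP, at 28.3, 21.7 and 21.2 TPM in MT and at 41.8, 36.6, 30.0 and 30.4 TPM in LT. The MT animals were again lowest, with none below 21 TPM.

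SMC4 changed by -0.69 (SE 0.16, adjusted P = 0.0168) and 0.53 (SE 0.15, adjusted P = 0.027), and NCAPD2, another condensin subunit, by -0.73 (adjusted P = 0.0161) and 0.55 (adjusted P = 0.0278). From MT to LT both of these calls were lost in 5 of the 22 alternative analyses, with adjusted P up to 0.101 for SMC4 and 0.0988 for NCAPD2. Their calls from NP to MT were lost in 3 alternatives each, with adjusted P up to 0.0699 for SMC4 and 0.0624 for NCAPD2. The 4 cytokinesis genes, ANLN, a scaffold of the contractile ring, ECT2, the exchange factor that turns on RhoA there, and the midzone kinesins KIF20A and KIF23, all fell to MT, by -1.52 to -1.99, and rose to LT, by 2.05 to 2.36. Their MT means lay between 1.78 and 3.02 TPM. The fall of ANLN was lost in 4 alternatives (adjusted P up to 0.0733) and that of KIF23 in 3 (up to 0.0695). That of ECT2 was lost when only NP and MT were fitted (adjusted P = 0.0591).

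**Figure D3:**
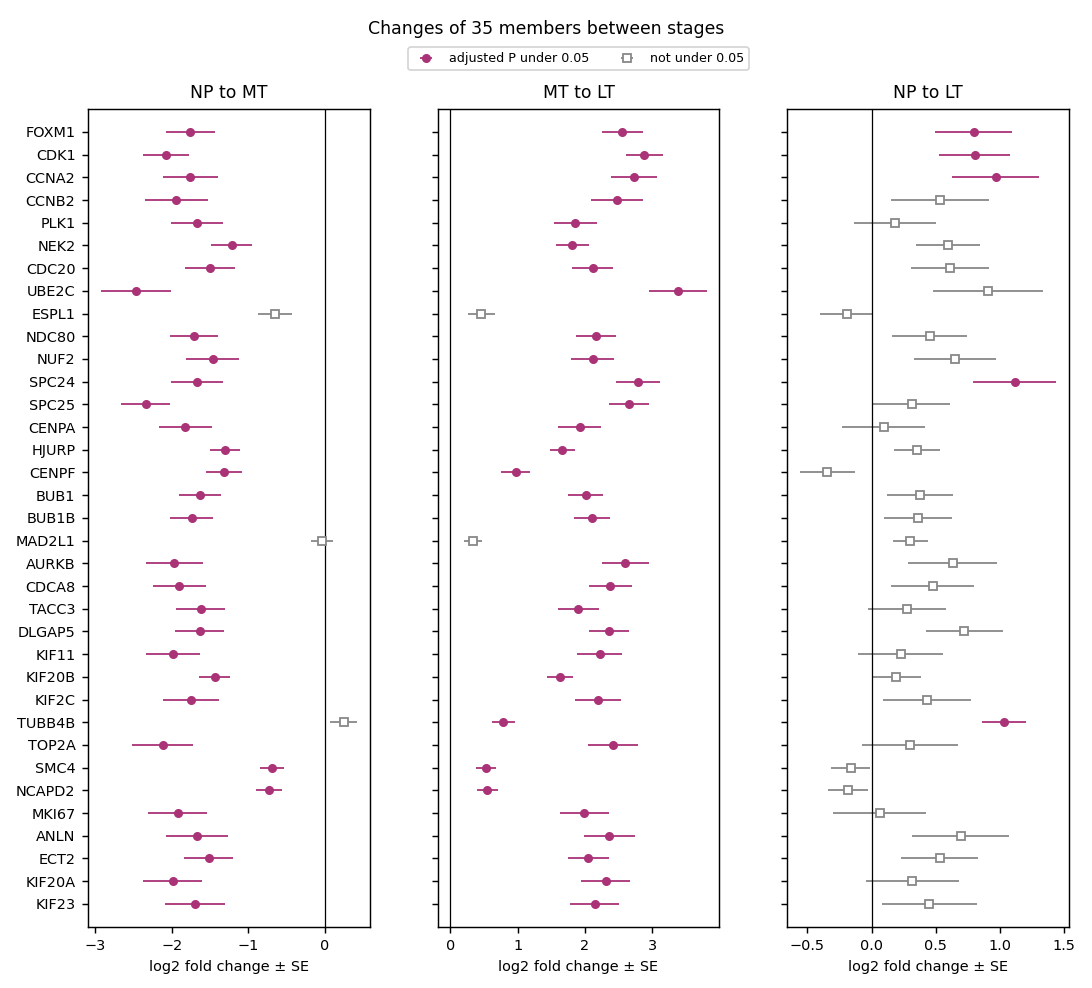
Log2 fold changes on the log2(TPM + 1) scale (x axes, with SE) of the 35 members for NP to MT, MT to LT and NP to LT; filled circles had an adjusted P under 0.05 in limma. The first panel holds 32 filled circles below 0, the second 33 above 0, and the third 5 above 0; the x axes differ between panels.

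For most members the late pregnant and the non-pregnant cervix differed less from each other than either did from mid-pregnancy. From NP to LT, 5 of the 35 members rose and none fell with an adjusted P under 0.05 (limma), where 11.2% of all tested genes rose and 41.9% fell. The share of members that rose was thus near that of all genes. The 5 were TUBB4B (log2 fold change 1.03, adjusted P = 0.000885), SPC24 (1.11, adjusted P = 0.0157), CDK1 (0.80, adjusted P = 0.0331), CCNA2 (0.97, adjusted P = 0.0351) and FOXM1 (0.79, adjusted P = 0.0477), and in these 5 no NP animal reached the lowest LT animal, as in 11.8% of all genes tested. The median of all members was 0.43 beside -0.28 over all genes. The LT mean was the higher one for 31 of 35 members, with CENPF, ESPL1, SMC4 and NCAPD2 the others, none of which passed. No share over all genes was counted for this, and the signs depend on the scaling. After median-ratio scaling the median over all genes was 0.0003, and ESPL1, SMC4 and NCAPD2 turned to positive. The means of MKI67, 13.4 ± 5.05 TPM in NP and 13.5 ± 2.43 TPM in LT (SD, n = 3 and 4), had a ratio of 1.01. The full order MT below NP below LT held for the means of 30 members, beside 9.39% of all genes.

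The number of members called from NP to LT moved with the analysis, from 2 to 19. The edgeR test called 9, beside 23.6% of all genes, and limma after median-ratio scaling called 13, beside a split over all genes of 3128 higher and 3157 lower in place of 1417 and 5301. SPC24 and TUBB4B passed in all 22 alternative analyses, CDK1 in 15, CCNA2 in 14 and FOXM1 in 11.

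The lowest changes from NP to LT were those of long members. Gene length, relative to the median tested gene, was recovered from the ratio of reads to TPM. Over the 35 members the change from NP to LT and the log of this length had a Pearson correlation of -0.60 and a Spearman correlation of -0.56, where Spearman's value over all 12645 genes was -0.20. The points share the same 7 libraries, so that these are descriptions across genes without a test. SPC24, at 0.157 of the median length, had the largest value, and CENPF, at 6.85 times the median length, the lowest. There was no gradient among the shorter members, with median changes of 0.60 for 4 members under 0.5 of the median length, 0.53 for 5 from 0.5 to 1, 0.60 for 12 from 1 to 2 and 0.26 for 14 of 2 or more, and the short CENPA changed by 0.09. When the trend with length was removed from each library, which was tried only after the values had been seen, 19 members rose from NP to LT (median 0.82), 35 from MT to LT (median 2.41) and 32 fell from NP to MT (median -1.53). Over all 12645 genes the same step gave 2975 higher from NP to LT, 1524 higher from MT to LT and 941 lower from NP to MT, in place of 1417, 851 and 1549.

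**Figure D4:**
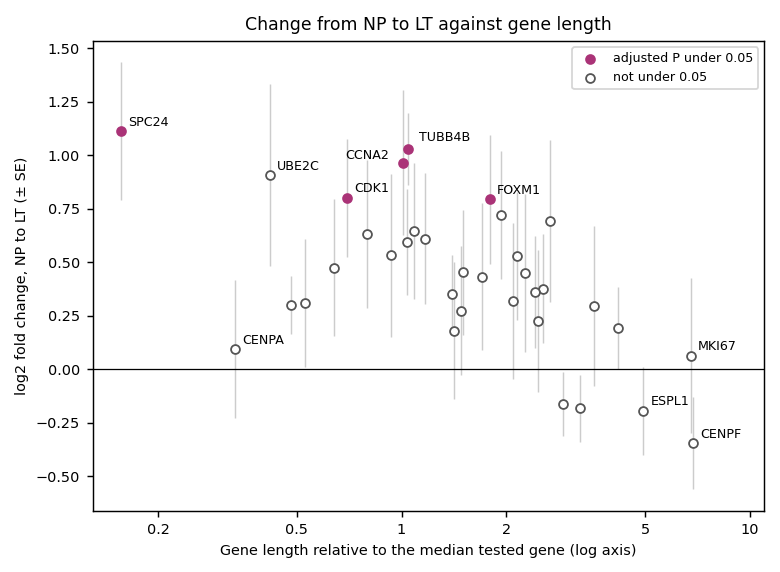
Log2 fold change from NP to LT (y axis, with SE) of the 35 members against gene length relative to the median tested gene (x axis, log scale); filled points had an adjusted P under 0.05. The long genes CENPF, ESPL1 and MKI67 lie at or below 0.06, and the short SPC24 lies at 1.11.

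The members also moved together among the animals of a stage, with the widest spread in MT. The median coefficient of variation of a member was 26.8% in NP, 64.1% in MT and 19.8% in LT. MT replicate 1 was the highest MT animal for 32 of 35 members, beside 38.1% of all genes, and MT replicate 2 the lowest for 32, beside 33.6%. Without TUBB4B, the members summed to 201, 92.3 and 134 TPM in the 3 MT animals. The spread was narrower in NP and LT, but there too 1 animal was low for most members. NP replicate 3 was the lowest NP animal for 28 members, beside 22.6% of all genes, and LT replicate 4 the lowest LT animal for 32, beside 34.7%. The sums without TUBB4B were 464, 533 and 338 TPM in NP and 725, 605, 655 and 462 TPM in LT, so that the lowest LT animal was within the range of NP and far above MT.

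Leaving out single animals did not end the pattern. Without each animal in turn, 26 to 33 members fell from NP to MT and 31 to 34 rose from MT to LT, with medians from -1.98 to -1.37 and from 1.81 to 2.45. The number of all genes that fell from NP to MT ran from 616 without MT replicate 3 to 3289 without NP replicate 1, and of those that rose from MT to LT from 373 without MT replicate 2 to 1236 without NP replicate 1. The low MT levels rest on fewer reads, with a median of 136, 33 and 112 reads per member in the MT animals, beside 283 to 521 in NP and 529 to 855 in LT.

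Some cell type markers moved in the same stages. The 9 squamous epithelium markers with a row, among them KRT14, the keratin of the basal layer, summed to 3246, 1076 and 1049 TPM in NP, to 1283, 190 and 446 TPM in MT and to 1521, 2383, 2627 and 2987 TPM in LT. KRT14 alone made up 2825, 919 and 970 TPM of this in NP, 1142, 133 and 369 TPM in MT and 1430, 2253, 2464 and 2803 TPM in LT. The other 8 summed to 79.6 to 421 TPM in the NP animals, 57.0 to 141 in MT and 90.8 to 184 in LT. Of these, DSG3, a desmosomal cadherin, had means of 29.8, 15.3 and 58.8 TPM in NP, MT and LT (MT to LT log2 fold change 2.35, adjusted P = 0.0624), with 36.2, 4.31 and 5.43 TPM in the MT animals, and TP63 had means of 39.2, 37.0 and 40.8 TPM. The order of the 3 MT animals in the whole sum was that of most members and of 20.1% of all tested genes. LT replicate 4 had the highest sum of these markers in LT and the lowest levels of most members. KRT14 was the only one of the 9 called higher from MT to LT (log2 fold change 2.5), and IVL, SPRR3 and CNFN, of the cornified layers, fell from NP to MT. Their NP levels came mostly from replicate 1. In the NP animals IVL was at 118, 30.9 and 10.6 TPM, SPRR3 at 35.15, 8.83 and 2.14 TPM and CNFN at 52.3, 11.3 and 1.88 TPM. SPRR3 was at 0 in 2 MT animals and in all 4 LT animals. Leukocyte markers, of which 17 matched, summed to 4591 to 8468 TPM in the NP animals, 9106 to 13440 in MT and 15090 to 19420 in LT, nearly all of it S100A8 and S100A9, whose cells of origin were not examined. The other 15 summed to 139 to 299 TPM in the NP animals, 163 to 185 in MT and 210 to 331 in LT. Of the 14 tested leukocyte markers, 7 had a positive and 7 a negative change from NP to MT (median -0.03), with 1 call, higher. From MT to LT 4 rose and none fell (median -0.02), beside 6.73% and 22.7% of all tested genes. Those that rose were CD163 (2.14), S100A8 (1.4), CSF3R (1.16) and CD14 (1.15), markers of macrophages, monocytes and neutrophils. From NP to LT 5 of the 14 rose and 3 fell, beside 11.2% and 41.9% of all tested genes. PTPRC was among those that fell (-0.98, adjusted P = 0.015), with means of 15.4, 9.62 and 6.89 TPM in NP, MT and LT.

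The 7 endothelium markers summed to between 166 and 222 TPM in NP, between 118 and 173 in MT and between 66.0 and 105 in LT, and 6 of them fell from MT to LT, beside 22.7% of all tested genes. Smooth muscle markers summed to 6280 to 23490 TPM in the NP animals, 9312 to 13970 in MT and 14400 to 32030 in LT, fibroblast markers to 6289 to 10760, 5379 to 10170 and 6327 to 9437 TPM, and glandular markers to 1125 to 1474, 1976 to 2792 and 1911 to 2221 TPM, each with overlap between at least 2 of the stages. Single markers did not all follow these sums. From NP to MT the glandular markers EPCAM (0.35), KRT7 (1.56) and MUC5B (3.75) rose and ELF3 (-1.11) and CLDN4 (-0.73) fell, and the fibroblast marker LUM fell (-0.67). From MT to LT no glandular marker was called, LUM rose (0.91), PDGFRA (-1.59) and PDGFRB (-0.56) fell, and SMTN (1.24) was the smooth muscle marker that rose. No marker was at 0 in every animal. Their part in the results of the members was not tested.

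Other genes of the same machinery were counted from lists. Over all tested genes, 12.2% fell and 6.27% rose from NP to MT, and 6.73% rose and 22.7% fell from MT to LT. Of 30 tested genes of the kinetochore and centromere outside the members, 19 fell and none rose from NP to MT, and 25 rose and none fell from MT to LT (median 1.06). Those with the largest rise were SGO1, the protector of centromeric cohesion (2.24), MIS18A, which prepares the centromere for CENPA (2.03), and CENPP, a subunit of the inner kinetochore (2.00). Of 18 other genes of the spindle and of cytokinesis, 15 fell from NP to MT, and 14 rose and 1 fell from MT to LT (median 1.64). PRC1, which bundles the spindle midzone (2.53), CEP55, of the midbody (2.46), and KIFC1, a kinesin that focuses spindle poles (2.14), led the rise, and NUMA1, a spindle pole protein that also belongs to the interphase nucleus, fell by 0.61.

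Condensin and cohesin genes were less uniform. Of 10 tested, 4 fell from NP to MT, and 5 rose and 2 fell from MT to LT (median 0.27). Among all tested genes 12.2% fell from NP to MT, and 6.73% rose and 22.7% fell from MT to LT. The 2 falls were a share near that of all genes. The condensin subunits NCAPG (2.23), NCAPH (1.33) and NCAPG2 (1.32) rose, and the cohesin subunits STAG1 (-0.36) and SMC1A (-0.28) fell. Among 26 other genes of mitotic entry and exit, 9 fell from NP to MT and 11 rose from MT to LT (median 0.40), led by CKS2, a small subunit of CDK complexes (2.29), CDKN3, a phosphatase that acts on CDKs (2.14), and PBK, a mitotic kinase (2.06).

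The genes of replication licensing and DNA synthesis act before mitosis in the same cell cycle. Of 25 tested, 2 fell and 1 rose from NP to MT, and 15 rose and 1 fell from MT to LT, with medians of -0.50 and 0.80 beside -1.67 and 2.12 for the members. Over all tested genes 12.2% fell and 6.27% rose from NP to MT, and 6.73% rose and 22.7% fell from MT to LT. All but the 15 rises were thus shares below those of all genes. The largest rises were those of TYMS, thymidylate synthase (2.68), CDC45, a part of the replicative helicase (1.90), and MCM10 (1.57), and CDC7, the kinase that fires origins, fell (-0.61). DBF4 (-0.90) and RRM1 (-0.51) were those that fell from NP to MT, and the gene that rose there was GMNN, geminin, the inhibitor of licensing (2.89, adjusted P = 0.00534); these 3 were picked out after their values were seen. From NP to LT, 9 of the 25 rose and 2 fell, beside 11.2% and 41.9% of all genes. No test compared the groups as such.

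**Figure D5:**
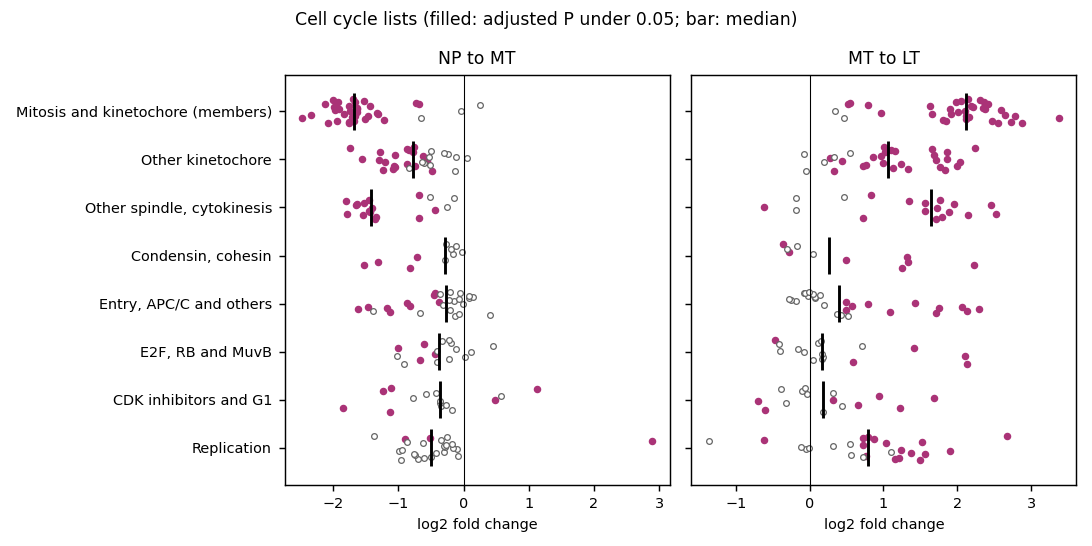
Log2 fold changes (x axes) of the 35 members and of 7 other lists of cell cycle genes (rows) for NP to MT and MT to LT, each point 1 gene, filled where the adjusted P in limma was under 0.05, with the list's median as a bar. The members lie farthest from 0 in both panels by their medians, -1.67 and 2.12, and replication genes sit nearer to 0, at -0.50 and 0.80.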

How the data were processed

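Per the labels and the methods of the study, RNA of each cervix was sequenced with strand-specific single reads, aligned with TopHat2 to cavPor3 and counted with HTSeq 0.5.4p1 (base calling with CASAVA 1.8.2, per the processing notes). The authors deposited the read count and the TPM value of each Ensembl gene and animal, and both were used as deposited. TPM values sum to a constant per animal and so depend on all other genes.

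log2(TPM + 1) was fitted with limma 3.58.1 (trend) in R 4.3.3, in 1 model of the 10 animals with the stage as its term, and P-values were adjusted by Benjamini-Hochberg over the 12645 genes with a stage mean of at least 3 TPM. Folds on this scale understate the change of low genes, as for SPC24 and CENPA in MT. All tests are two-sided, adjusted P-values are limma's unless edgeR is named, and a call is an adjusted P under 0.05. Ratios of means use TPM itself. edgeR 4.0.16 (quasi-likelihood, TMM) and DESeq2 1.42.0 on the counts, other scales, filters and normalizations, 2 stages alone, a replicate block and each animal left out were the alternatives, and removal of the length trend was added after seeing the data. No pair of libraries within a stage was a duplicate. The scripts were tested on simulated data.

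The members and the lists were chosen with earlier results of these data known. All members are named by role. Values in every animal are given for the 3 largest and 3 smallest changes from MT to LT, the 3 highest levels, the NDC80 complex, FOXM1, CDK1 and the cyclins. Of other lists, at most 3 genes per direction that passed from MT to LT are named by rule. GMNN, DBF4, RRM1 and the markers DSG3, TP63, IVL, SPRR3, CNFN, CD14, S100A9, PTPRC, EPCAM, KRT7, MUC5B, ELF3 and CLDN4 were named after their values were seen. Sequences were not used here.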

Additional observations from a re-analysis of the deposited data

Results flagged for a closer look

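MAD2L1 in LT replicate 2 was at 24.8 TPM, apart from the next LT animal at 28.7 TPM, and this gap is 0.86 of the whole range of the 4 LT animals. It was the only such gap among the 35 members in LT, and chance alone sets 1 in 20 groups apart in this way.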

How the results depend on the processing

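From NP to MT and from MT to LT the number of members called stayed within 1.5 times its value in every alternative that was run, and no member called in limma turned its direction. The median change from NP to MT was -2.13 with a pseudocount of 0.1, and that from MT to LT was 2.63 with this pseudocount, 2.64 with edgeR and 2.64 with DESeq2. From NP to LT, 5 members were called, and 8 on the square-root scale, 2 with a pseudocount of 0.1, 2 without the filter, 13 after median-ratio scaling, 19 after quantile normalization (median 0.87), 9 with edgeR, 13 with DESeq2, 9 when only these stages were fitted and 19 without the length trend. The genes called higher over the whole table rose as well, from 1417 to 3128 (median-ratio), 2689 (quantile), 2990 (edgeR), 3311 (DESeq2) and 2975 (length trend), but not with the other settings named (1339 to 1444). Leaving out 1 animal gave 2 to 7 (1159 to 1429 higher over all genes), with 2 in the absence of NP replicate 1, NP replicate 3 or LT replicate 1, 2 or 3.

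Signs turned only for changes that limma did not call. MAD2L1 from NP to MT was 0.080 after median-ratio scaling, 0.088 after quantile normalization, 0.080 with edgeR, 0.087 with DESeq2 and 0.024 without the length trend, and ranged from -0.21 to 0.053 when 1 animal was left out, above 0 without NP replicate 2, NP replicate 3 or MT replicate 1. From NP to LT, in the order median-ratio, quantile, edgeR, DESeq2 and length trend removed, ESPL1 was 0.062, 0.26, 0.074, 0.076 and 0.43, SMC4 was 0.13, 0.049, 0.13, 0.14 and 0.36, and NCAPD2 was 0.095, 0.19, 0.11, 0.11 and 0.36, and CENPF was 0.099 (quantile) and 0.35 (length). Among these, only SMC4 and NCAPD2 without the length trend were called, as higher. With 1 animal left out, PLK1 ranged from -0.0025 to 0.33, CENPA from -0.048 to 0.28, TOP2A from -0.0082 to 0.46 and MKI67 from -0.27 to 0.27, below 0 without NP replicate 3 and, for CENPA and MKI67, without LT replicate 1. The cause was not tested. Over all members and alternatives, 20 calls were lost and 3 gained from NP to MT, 11 lost and 13 gained from MT to LT, and 26 lost and 59 gained from NP to LT. The last count leaves out SMC4 and NCAPD2 without the length trend, which were gained with a turned sign.

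Replicate numbers recur in the 3 stages, but same-numbered animals did not deviate together (correlations from -0.29 to 0.25), so the numbers are names. With the replicate number as a block, 32 members were called from NP to MT, 31 from MT to LT and 3 from NP to LT, beside 949 lower, 414 higher and 1151 higher over all genes. The number of animals and the low counts in MT limit the precision of the folds. SPC24 and CENPA had the fewest reads there, while the SE from MT to LT was largest for UBE2C, at 0.43.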

Other observations

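Of 16 tested genes of the E2F, RB and MuvB families, which set the transcription of the cell cycle, 4 fell from NP to MT, and 4 rose and 1 fell from MT to LT (median log2 fold change 0.16, limma). The shares over all tested genes were 12.2% lower from NP to MT, and 6.73% higher and 22.7% lower from MT to LT. MYBL2, a MuvB partner that acts before FOXM1 (2.13, adjusted P = 0.00357), E2F1 (2.10, adjusted P = 0.0122) and E2F7 (1.42, adjusted P = 0.00454) rose most, and RBL2, a pocket protein of resting cells, fell (-0.46, adjusted P = 0.01). From NP to LT, 2 of the 16 rose and 5 fell, shares close to or below the 11.2% and 41.9% of all tested genes.

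Of 15 tested CDK inhibitors and G1 regulators, 2 rose and 4 fell from NP to MT, and 5 rose and 2 fell from MT to LT (median 0.18). Across all tested genes 6.27% rose and 12.2% fell from NP to MT, and 6.73% rose and 22.7% fell from MT to LT. The 2 falls from MT to LT were thus a share below that of all genes. CCNE1, the cyclin of the step into S phase, rose from a mean of 1.88 to 7.89 TPM between MT and LT (1.69, adjusted P = 0.00469), CDKN2B, an inhibitor of CDK4 and CDK6, by 1.22 (adjusted P = 0.0233) and CCNE2 by 0.94 (adjusted P = 0.049). CCND2, a D-type cyclin, fell (-0.70, adjusted P = 0.0052), as did CDKN1B, the inhibitor p27 (-0.60, adjusted P = 0.0287). From NP to LT, 5 of the 15 rose and 6 fell, beside 11.2% and 41.9% of all genes.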
